A study of Homo sapiens with 22 samples.

Results

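Cluster 8 of the untreated WM989 experiment held 633 of 12531 cells (5.05%). Its members were taken by the deposited cluster number of each cell. Of the 11 clusters 3 carry the class primed, cluster 2 with 1588 cells, cluster 8 with 633 and cluster 9 with 622. The other 8 clusters, with 9688 cells, carry the class drug-susceptible. Primed is the study's word for untreated cells whose expression state precedes resistance to BRAF and MEK inhibitors.

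WM989 is a human melanoma line with a BRAF V600E mutation, and the stock used had been taken through single cells more than once, so all the cells come from 1 clone. The cells carried a viral library of transcribed lineage barcodes and received no drug. They were read in 8 wells of a droplet instrument, wells 1 to 4 of replicate r1 and wells 5 to 8 of replicate r2. The methods describe cultures of mixed cells and of cells sorted for high EGFR and NGFR, grown for several doublings and split over wells of the instrument, while the labels do not say which well held which culture. A second experiment treated barcoded WM989 cells with no agent (Control), recombinant TGFB1, the TGFBR1/2 inhibitor LY2109761 (TGFBRi) or the PI3K inhibitor GDC-0941 (PI3Ki), in 2 libraries each. The sample titles call these Mix and Primed, so they may differ in their starting cells, while the cell table calls them r1 and r2, the names used here. Another held untreated cells of the melanoma line WM983B in 1 library. ATAC-seq, which reads open chromatin, was run on WM989 cells sorted as EGFR_High, NGFR-High, EGFR-NGFR-High and Mix, in 3 libraries each, and the methods describe the last sort as negative for both proteins.

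IL24 is a secreted cytokine of the IL10 family, and NGFR is the low-affinity neurotrophin receptor, a surface protein of neural crest cells that marks poorly differentiated melanoma cells. In melanocytes SOX10 and MITF drive the pigment genes PMEL, MLANA, TYR and DCT, and melanoma cells that lose this program often turn on AXL, EGFR, NT5E and matrix genes. RGS2 shortens signals from G proteins, FSCN1 bundles actin, CST7 is a cystatin, DKK1 blocks Wnt signals outside the cell, TDO2 breaks down tryptophan and SERPINB2 inhibits plasminogen activators.

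Of the chromatin regions beside genes of this group that differed between the sorts, the central 300 bases of 2 are shown, because they stand downstream of DKK1 and IL24 and had the lowest adjusted p beside each gene against Mix. They are given on the plus strand of hg38, with matches to the AP-1 motif TGANTCA or to GGAATG, the core of TEAD sites, in capitals, both motifs searched on both strands.
DKK1 downstream, chr10:52319070-52319369: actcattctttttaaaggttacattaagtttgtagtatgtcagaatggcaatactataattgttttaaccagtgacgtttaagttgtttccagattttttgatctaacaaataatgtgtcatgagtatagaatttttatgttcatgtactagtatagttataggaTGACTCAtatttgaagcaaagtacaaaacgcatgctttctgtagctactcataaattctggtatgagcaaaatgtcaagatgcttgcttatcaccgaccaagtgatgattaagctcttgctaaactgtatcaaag
IL24 downstream, chr1:206905544-206905843: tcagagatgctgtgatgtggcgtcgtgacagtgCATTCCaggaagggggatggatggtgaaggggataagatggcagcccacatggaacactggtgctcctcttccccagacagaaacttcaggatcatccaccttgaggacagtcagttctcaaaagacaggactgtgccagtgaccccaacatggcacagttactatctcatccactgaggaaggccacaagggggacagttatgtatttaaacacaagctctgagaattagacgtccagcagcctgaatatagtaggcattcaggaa
The stretch beside DKK1 lies in no annotated gene and holds 1 TGANTCA match and 0 GGAATG matches. The stretch beside IL24 lies in an intron of FCMR and holds 0 TGANTCA matches and 1 GGAATG match, read on the other strand. Of all 151653 regions, 20.2% held TGANTCA and 20.4% held GGAATG in a central stretch of the same length. A match is a description of the letters and not a site.

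The share of cluster 8 among all the cells of a well was nearly level, while the other primed clusters were not. It was lowest in well 1, at 2.89%, and highest in well 3, at 5.62%, with 5.59, 5.02, 4.17, 3.27, 5.43 and 4.96% in wells 2, 4, 5, 6, 7 and 8. The whole primed class, by contrast, made up between 56.9 and 79.7% of the cells of wells 1, 2, 5 and 6 and between 6.85 and 9.42% of wells 3, 4, 7 and 8. Cluster 8 therefore made up 5.08, 8.97, 5.23 and 4.25% of the primed cells of wells 1, 2, 5 and 6, and 71.4, 73.4, 59.2 and 52.6% of those of wells 3, 4, 7 and 8. Over all wells it was 22.3% of primed cells (exact Clopper-Pearson interval at 95%, 20.7 to 23.8%), 22.9% in r1 and 21.2% in r2. Such intervals cover counting error only.

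Of the cluster 8 cells 489 (77.3%) came from wells 3, 4, 7 and 8, whereas 1519 of the cluster 2 cells (95.7%) came from wells 1, 2, 5 and 6. The 8 wells held 13, 95, 90, 193, 17, 19, 116 and 90 cells of cluster 8, in order. Since the sort of a well is not in the labels and all wells belong to 1 sample, no test was made between wells. The wells' totals ran from 35882876 to 177318308 unique molecular identifiers (UMIs, the counted molecules). Across wells 38 cells shared a cell barcode with a cell of another well, and 0 of these were in cluster 8.

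**Figure D1:**
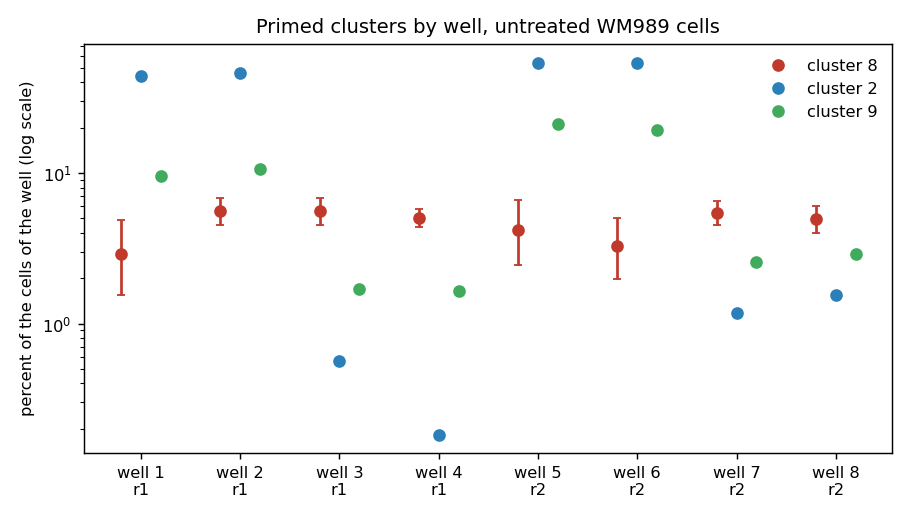
Percent of the cells of each well (vertical axis, log scale) in primed clusters 8, 2 and 9, by well and replicate (horizontal axis). Bars on cluster 8 are exact 95% intervals, and cluster 8 stays between 2.89 and 5.62% in the 8 wells while clusters 2 and 9 sit high in wells 1, 2, 5 and 6 and low in wells 3, 4, 7 and 8.

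The 8 genes of the cluster's label were high in cluster 8 against drug-susceptible cells, but they did not set it apart from the other primed clusters. Levels are CPM, the UMIs of a gene over all UMIs of the summed cells on a common scale, so they compare 1 gene between clusters. Over the summed cells IL24 stood at 54.3 CPM in cluster 8, 33.0 in cluster 2 and 24.3 in cluster 9, and NGFR at 34.4, 27.3 and 33.8. RGS2 stood at 119, 114 and 66.9 CPM, and FSCN1 at 29.9, 22.8 and 32.9. CST7 stood at 53.9, 60.7 and 28.8 CPM, and DKK1 at 44.5, 59.6 and 9.0.

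Cluster 8 ranked first of the 11 clusters for 4 of the 8 genes, IL24, RGS2, NGFR and TDO2, by levels summed over wells that hold the clusters in different shares, and in no drug-susceptible cluster did any of the 8 pass 9.38 CPM. TDO2 stood at 27.1, 24.3 and 17.3 CPM in clusters 8, 2 and 9, and SERPINB2 at 35.7, 39.2 and 39.5. For TDO2 well 3 of cluster 8 was at 83.9 CPM and the other wells at 8.01 to 34.4, while cluster 2 was at 98.1 in well 3, on 9 cells. IL24 and NGFR therefore did not separate cluster 8 from clusters 2 and 9, and the cluster is called by its number here. Because the authors formed the clusters from these same counts, a difference between clusters is a description with no test.

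Across wells the genes of the label spread widely. IL24 ran from 18.2 to 133.5 CPM over the 8 wells of cluster 8 with a median of 59.1, from 7.18 to 56.8 with a median of 30.3 over the 6 wells with at least 10 cells of cluster 2, and from 9.17 to 40.4 with a median of 24.0 in cluster 9. The ranges overlap, and the highest drug-susceptible well, at 1.03 CPM, lies under the lowest well of each. NGFR ran from 18.4 to 85.7 CPM with a median of 38.1 in cluster 8, from 23.4 to 29.6 with a median of 27.7 in cluster 2, and from 17.2 to 56.6 with a median of 38.2 in cluster 9. Drug-susceptible cells reached 3.69 CPM of NGFR in their highest well. DKK1 ran from 5.58 to 121 CPM in cluster 8, from 4.51 to 117 in cluster 2 and from 0.27 to 23.4 in cluster 9.

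**Figure D2:**
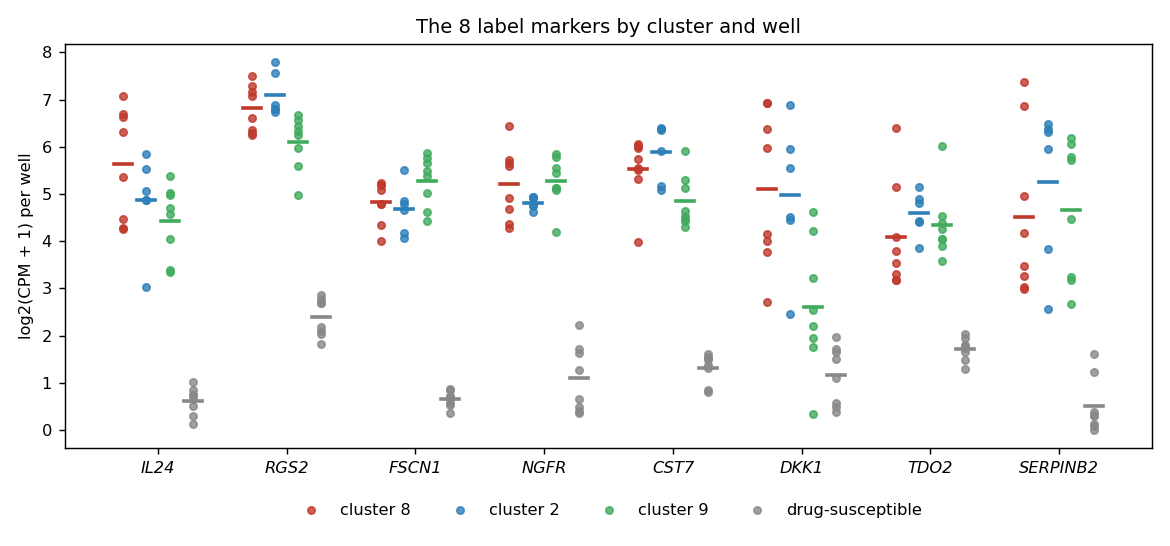
Level of the 8 label genes as log2(CPM + 1) (vertical axis) in clusters 8, 2 and 9 with at least 10 cells in the well and in drug-susceptible cells, 1 point per well and a bar at the mean of the wells. Cluster 8 overlaps clusters 2 and 9 for every gene, and drug-susceptible wells lie lowest throughout except for DKK1, where the lowest cluster 9 well falls among them.

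In each primed cluster a minority of cells carried both genes of the label. An IL24 UMI was found in 17.5% of cluster 8 cells and an NGFR UMI in 36.3%, at a median of 38061 UMIs a cell, against 25.4 and 44.8% in cluster 2 at 62895 and 1.64 and 2.46% in drug-susceptible cells at 52835. After each cell was thinned to 10000 UMIs, a depth that all 12531 cells reached, IL24 was found in 9.79% of cluster 8, 11.3% of cluster 2, 11.4% of cluster 9 and 0.42% of drug-susceptible cells. NGFR was found in 18.01, 16.6, 21.5 and 0.78%. The last share in each set stands for background and rare expression together. Both genes were found in 2.05% of the thinned cluster 8 cells, where the product of the single shares is 1.76%, and in 2.02% of cluster 2 and 2.41% of cluster 9. At full depth both were found in 8.69% of cluster 8 cells, 13.8% of cluster 2 and 17.04% of cluster 9.

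Within cluster 8 IL24 and NGFR were only weakly related from cell to cell, with a Pearson correlation of 0.12 over 633 cells that share libraries and depth. The genes most like IL24 among 9644 genes were PPP1R15A, a stress phosphatase subunit, at a correlation of 0.32, MAPKAPK2, a kinase under p38, at 0.30, the cytokine IL11 at 0.30, the receptor TNFRSF12A at 0.28 and STEAP1 at 0.27. Those most like NGFR were the protease PRSS23 at 0.30, the AP-1 subunit FOSL1 at 0.30, ARHGAP18 at 0.29, COTL1 at 0.29 and CDC42EP3 at 0.28. The 2 sets of 5 share no gene.

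Against drug-susceptible cells cluster 8 showed the loss of the pigment program and the gain of cytokine, matrix and growth factor genes that defines the primed class. Counts were summed per cluster and well, and the difference of log2(CPM + 1) was taken within each well that held 20 cells of both sides and averaged over wells. A gene was called at a difference of at least 1, which is 2-fold, with the same sign in every well and at least 10 CPM in either side. Since 1 is added to each value, folds of low genes are understated. Over wells 2, 3, 4, 7 and 8, 541 of 8412 genes were higher (6.43%) and 512 lower (6.09%), around a median of all genes of −0.12.

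At the upper end stood TMEM158, at a mean of 1019 CPM in cluster 8 and 10.6 in drug-susceptible cells, 90.7-fold higher. SRGN, the core of a secretory granule proteoglycan, was 75.5-fold higher, the collagenase MMP1 68.0-fold, IGFN1 60.5-fold and IL11 48.4-fold. At the lower end DCT and PMEL, an enzyme and a matrix protein of the melanosome, were 10.9-fold and 9.56-fold lower, MLANA 8.76-fold, RLBP1 9.88-fold and GAPDHS 9.43-fold. All 8 label genes were higher, with a median log2 difference of 4.22, IL24 at 27.7-fold and NGFR at 16.2-fold. These values follow the classes the authors drew and are given to place the cluster.

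By lists chosen for this tissue, 18 of 19 tested primed state markers were higher (median log2 difference 2.97), including NT5E at 6.51-fold, EGFR at 4.92-fold and AXL at 20.4-fold. Of 14 tested melanocyte genes 12 were lower and 0 higher (median −2.26), and only PAX3 and GPR143 were not called. Matrix and integrin genes were higher in 11 of 13, TGF-beta feedback genes in 10 of 14, with BAMBI, a decoy receptor, lower, and inflammatory cytokines in 10 of 12, IL1B at 23.6-fold among them. All 18 genes of G2 and M phase were lower (median −1.43). Among neurotrophins and receptors NGFR and BDNF, one of its ligands, were higher and TRAF4 lower, while NTF3 and NTF4 were at 0 UMIs in cluster 8. Of the genes for IL24's receptors IL20RA was at 0 UMIs.

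Markers of other cell types were mixed. Leukocyte markers summed to at most 5.04 CPM in any cluster 8 well, with CD3E, FCGR3A and TYROBP at 0. Endothelial markers summed to 6.78 to 17.6 CPM against 0.46 to 0.97 in drug-susceptible cells, and PECAM1 was called higher at a log2 difference of 3.51, with CDH5, CLDN5 and TEK at 0. The keratinocyte markers summed to 151 to 242 CPM, against 112 to 137 in drug-susceptible cells, led by KRT10 at 195, with KRT5, KRT14, KRT1 and EPCAM at 0. Schwann cell markers summed to 537 to 1133 CPM against 1145 to 1661 in drug-susceptible cells, and none of that list was at 0. Fibroblast markers summed to 80.0 to 270.4 CPM in cluster 8 against 188 to 343 in cluster 2 and 27.7 to 44.8 in drug-susceptible cells, and COL1A1 and PDGFRA were called higher at 5.40 and 3.36, LUM was called lower and PI16 was at 0. Their part in the other results was not tested.

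Against cluster 2, the largest primed cluster, cluster 8 had lower levels of some inflammatory and interferon genes, IL1B among them, and higher levels of a few pigment and division genes. Only wells 2, 7 and 8 held 20 cells of both, and 48 of 8384 genes were higher (0.573%) and 72 lower (0.859%). With trimmed mean (TMM) factors in place of the plain totals the split became 80 higher and 55 lower. Of the 8 label genes 0 were called in either direction. IL24 was 78.2 against 32.4 CPM in well 2, 39.9 against 56.8 in well 7 and 98.7 against 7.18 in well 8.

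IL1B, the cytokine that leads NF-kB driven inflammation, stood at 25.9, 13.2 and 39.4 CPM in wells 2, 7 and 8 of cluster 8 and at 94.0, 303.7 and 389 in cluster 2, 9.02-fold lower. All 3 wells of cluster 8 lie under those of cluster 2. C5AR1, the receptor of the complement fragment C5a, was 10.5-fold lower. OASL, an interferon-induced gene, was 7.78-fold lower, and ALOX5AP, which hands arachidonic acid to 5-lipoxygenase, 5.70-fold lower, with 5.63, 6.59 and 4.99 CPM against 33.8, 55.9 and 27.1. G0S2, an inhibitor of fat breakdown, was 5.50-fold lower and WISP1, a matricellular Wnt target, 5.41-fold.

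The chemokines CXCL8 and CXCL1 were 4.95-fold and 4.71-fold lower, STC1 3.39-fold and IFIT1 3.38-fold. CXCL8 rests much on well 7, where it was 35.3 CPM in cluster 8 and 649.8 in cluster 2, against 1.33 and 3.80 in well 2. Of 14 inflammatory genes tested 5 were lower, IL1B, CXCL1, CXCL8, CCL2 and CCL20, and 1 was higher, IL11 at 2.06-fold. Of 12 interferon genes 4 were lower, ISG15, IFIT1, IFIT3 and OASL, and 0 higher. MMP1 and MMP9 were lower as well, at log2 differences of −1.40 and −1.32, as were WNT5A at −1.14, LTBP1 at −1.44 and PLAUR, the receptor of urokinase.

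At the upper end FXYD3, an ion pump regulator, was 4.98-fold higher, with 122.7, 28.9 and 17.7 CPM in wells 2, 7 and 8 against 4.56, 12.6 and 6.38. Summed drug-susceptible cells had 228 CPM of FXYD3. C11orf96 was 4.31-fold higher, with 29.3, 9.11 and 24.96 CPM against 4.14, 3.61 and 3.19. SOX10, PMEL and MLANA were each 2.95-fold to 2.96-fold higher in the mean, but the size came from well 2, where SOX10 was 59.4 against 3.31 CPM, while in well 8 it was 10.8 against 10.4. These 3 were the only melanocyte genes called of 13 tested, with 0 lower. NUSAP1, CCNB2 and HIST1H1B, genes of division and of new histones, were 3.02-fold, 2.52-fold and 2.49-fold higher, HMGB3 2.53-fold and FABP7, a fatty acid carrier of neural crest cells, 2.47-fold. Of 18 genes of G2 and M phase 3 were higher and 0 lower, and of 18 of S phase 2 were higher and 0 lower.

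**Figure D3:**
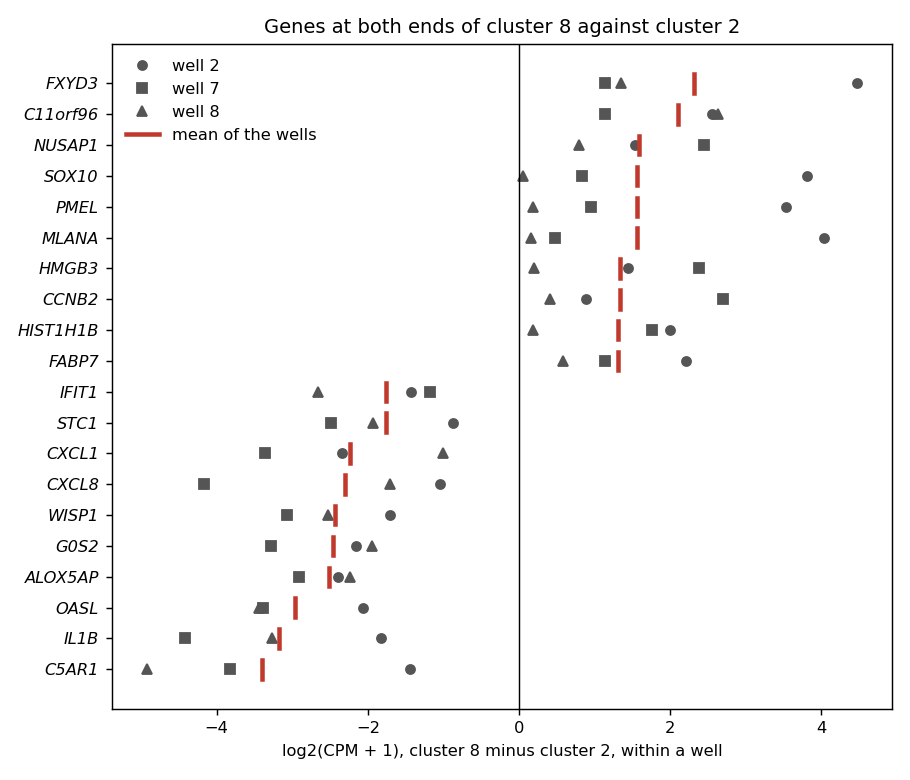
Difference of log2(CPM + 1) of cluster 8 minus cluster 2 (horizontal axis) for the 10 genes at each end (vertical axis), 1 point for each of wells 2, 7 and 8 and a bar at their mean. SOX10, PMEL, MLANA and FXYD3 are far higher in well 2 than in wells 7 and 8, while IL1B, OASL, ALOX5AP and G0S2 are lower in all 3 wells by more than 1.

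Cluster 9 was set apart from cluster 8 by division. Cells that the authors' labels put in G2 or M phase were 62.9% of cluster 9, 5.21% of cluster 8 and 1.197% of cluster 2, and cells in G1 were 11.4, 84.4 and 93.8%. Over 5 wells 48 of 8283 genes were higher in cluster 8 (0.580%) and 295 lower (3.56%). All 18 genes of G2 and M phase were lower (median log2 difference −2.84), and 6 of 18 of S phase. HJURP, which loads centromeric histones, was 12.1-fold lower, TOP2A 11.1-fold, UBE2C 10.3-fold, NEK2 9.63-fold and DLGAP5 9.20-fold.

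Higher than in cluster 9 were FXYD3 at 5.30-fold, DKK1 at 5.11-fold, AL162457.2 at 4.55-fold, the transcription factor CEBPD at 4.05-fold and MLANA at 3.03-fold. DKK1 was 16.9, 12.6, 15.0, 61.8 and 120.4 CPM in wells 2, 3, 4, 7 and 8 of cluster 8 and 3.63, 2.87, 2.36, 4.82 and 23.4 in cluster 9, higher within each of the 5 wells. CST7 was the other label gene called, at 2.09-fold. NGFR went the other way in the mean, at a log2 difference of −0.45, but was higher in 2 of the 5 wells and was not called. FOSL1 and EGR1 were lower, at −1.24 and −1.28, among 14 genes of AP-1 and the immediate early response, of which 0 were higher. Of 13 inflammatory genes 0 were higher than in cluster 9 and 1 was lower, TNFAIP6 (median log2 difference 0.04). Of 10 interferon genes 0 were higher and 0 lower (median 0.02). The lower levels of these lists against cluster 2 were thus not seen against cluster 9.

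Some cells of cluster 8 carried transcripts of the drug-susceptible state. A SOX10 UMI was found in 190 of the 633 cells (30.0%), against 13.2% in cluster 2, 14.5% in cluster 9 and 98.2% in drug-susceptible cells. By well the share was 65.3% in well 2 and between 15.4 and 35.3% in the others. In wells 3, 4, 7 and 8, which held most of the cluster, it was 26.7, 19.2, 27.6 and 23.3% in cluster 8, below the 33.3, 28.6, 32.0 and 28.6% of cluster 2, which had 7 to 28 cells in each. Cluster 9 was also higher in wells 7 and 8, at 29.1 and 24.5%. The share was higher in cluster 8 than in both others in wells 1, 2, 5 and 6. After thinning it was 12.2, 3.15, 2.73 and 70.4%. SOX10 itself ran from 10.8 to 59.4 CPM over the wells of cluster 8 and from 122 to 140 in drug-susceptible cells, with no overlap, and from 2.67 to 10.8 in the wells with at least 10 cells of cluster 2.

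Over all wells the cluster 8 cells with a SOX10 UMI were deeper and held more lineage barcodes than the others. Their median was 60504 UMIs and 4 barcodes, with 84.7% holding 2 or more, against 32169 UMIs, 2 barcodes and 70.2% in the 443 cells without. Cells with a SOX10 UMI were also deeper in cluster 2, at 89439 against 59755 UMIs, and in cluster 9, at 89272.5 against 67449. With and without SOX10, 79.9 and 75.7% of cluster 2 and 82.2 and 75.4% of cluster 9 held 2 or more barcodes. In drug-susceptible cells that share was 71.2%. PMEL was 416 CPM in the cluster 8 cells with SOX10 and 83.3 in those without, MITF 128 and 64.3, and MLANA 497 and 53.3. Drug-susceptible cells had 2158, 313 and 1683. The surface enzyme NT5E was 125 and 196 CPM, fibronectin (FN1) 2036 and 3308 and AXL 17.9 and 43.1, lower in the cells with SOX10 over all wells. Within wells NT5E was higher in them in wells 6 and 8, at 338 against 178 and 241 against 231 CPM, and they were not deeper in wells 5 and 6, which had 6 such cells each. In those 2 wells the share with 2 or more barcodes was lower in them, at 66.7 against 90.9% and 83.3 against 92.3%, and in well 8 the median was 2 barcodes in both. The part of depth, and of drops that held more than 1 cell, in these values was not tested.

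The comparisons were repeated without the cells that carried a SOX10 UMI, in all clusters. Since SOX10 belongs to the pigment program, leaving those cells out lowers its genes by construction, and the values are a description. Only wells 2 and 8 then held 20 cells of clusters 8 and 2, while the values before also average well 7. Each change against cluster 2 therefore mixes leaving out these cells with leaving out that well. The log2 difference from cluster 2 went from 1.56 to 0.24 for PMEL, from 1.56 to 0.65 for MLANA and from 2.32 to 0.06 for FXYD3. From cluster 9, over the same 5 wells, it went from 1.18 to −0.01 for PMEL, from 1.60 to 0.46 for MLANA and from 2.41 to 0.36 for FXYD3. Against cluster 2 IL1B was at −3.17 before (SD over wells 1.31) and −3.35 after, where the 2 wells lay far apart (SD 3.75). ALOX5AP was at −2.51 and −3.10, CXCL1 at −2.24 and −1.99 and CXCL8 at −2.31 and −1.11. With 10 cells as the minimum, which gave 6 wells, IL1B was at −4.25, lower in 6 of 6, while ALOX5AP was at −2.03, CXCL1 at −0.83 and CXCL8 at −0.86, lower in 5, 4 and 5 of 6. C11orf96 was at 2.11 before and 3.41 after, but at 1.25 and higher in 4 of 6 wells with 10 cells. DKK1 against cluster 9 was at 2.35 and 2.87.

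Without the cells that carried a SOX10 UMI 73 genes were higher than in cluster 2 and 110 lower over wells 2 and 8, but 6 and 79 with 10 cells as the minimum. Of the 73 and 110, 15 and 44 were also called with all cells. The 15 include IL11, the orphan nuclear receptors NR4A1 and NR4A2, the kinase SGK1, GEM, TRIB1, SOCS2 and ADAMTS1, a matrix protease. The others are CDC20, RRM2, SKA3, CDCA4, SYNE2, C11orf96 and AL162457.2. Against cluster 9 there were 25 higher and 365 lower, of which 15 and 280 were shared, DKK1, CST7, CEBPD and ADAMTS1 among those higher. This setting was chosen after the SOX10 counts had been seen.

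**Figure D4:**
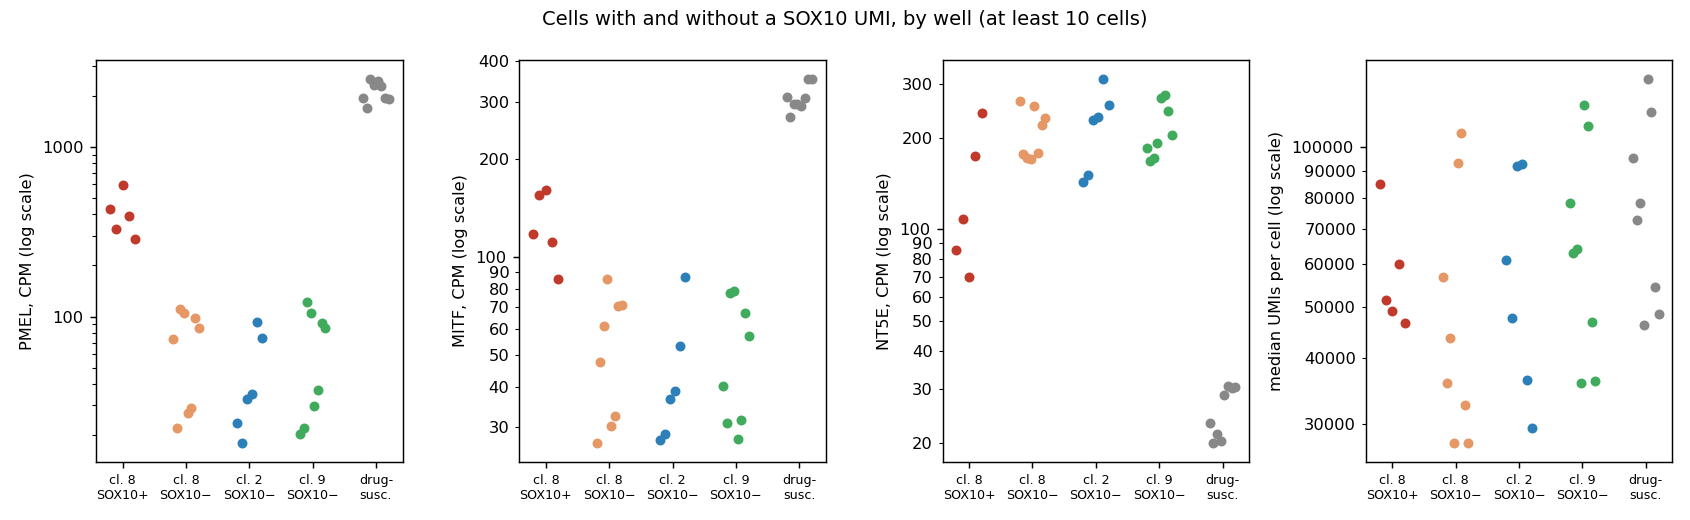
PMEL, MITF and NT5E in CPM and the median UMIs per cell (vertical axes, log scales) in cluster 8 cells with and without a SOX10 UMI, in cells of clusters 2 and 9 without one and in all drug-susceptible cells, 1 point per well with at least 10 such cells. Cluster 8 cells with SOX10 lie between the other primed cells and the drug-susceptible cells in PMEL, and cluster 8 cells without SOX10 overlap clusters 2 and 9 in PMEL, MITF and NT5E.

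The replicates of cluster 8 differed in several label genes. NGFR was 24.5, 18.4, 29.0 and 19.7 CPM in wells 1 to 4 of r1 and 85.7, 49.1, 47.1 and 51.9 in wells 5 to 8 of r2, so that the replicates did not overlap. DKK1 was 5.58, 16.9, 12.6 and 15.0 CPM in r1 and 121, 82.3, 61.8 and 120.4 in r2. SERPINB2 ran from 6.96 to 10.0 CPM in r1 and from 17.1 to 164 in r2. IL24, RGS2, FSCN1, CST7 and TDO2 overlapped between the replicates. Over all genes 402 of 8451 (4.76%) were 2-fold higher in r2 with no overlap of wells and 78 (0.923%) lower. Of the 8 label genes 3 were called higher, NGFR, DKK1 and SERPINB2. The label genes were chosen from these same data, so their share beside that background is a description and not a test.

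Part of this difference was also found in the summed drug-susceptible cells. The 5 genes at its lower end, ARF5, MRPL23, MTRNR2L10, ALDOA and MTRNR2L8, differed by log2 −4.92, −4.35, −3.80, −3.62 and −3.51 in cluster 8 and by −4.92, −4.64, −3.96, −3.48 and −3.73 in drug-susceptible cells. NGFR differed by 1.29 in cluster 8, by 1.23 in drug-susceptible cells and by −0.40 in cluster 9. DKK1 differed by 2.89, 1.08 and 2.08 in the same order, and SERPINB2 by 2.65, 0.75 and 2.55. Replicate and culture cannot be told apart.

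The share of cells with a lineage barcode, which did not enter the clusters as far as the methods state, was 97.9, 92.2 and 94.4% in cluster 8 in wells 2, 7 and 8 and 97.2, 96.0 and 92.9% in cluster 2. A cell was counted from 1 lineage barcode UMI on, and the authors' further filters, which assign a lineage to fewer cells, were not applied. Cluster 8 was higher in wells 2 and 8 and lower in well 7. The mean difference was −0.49 percentage points, and an exact two-sided sign-flip permutation test over these 3 wells gave p = 1, where the smallest p that 3 wells allow is 0.25. All wells belong to 1 sample, so these p-values measure only the spread between wells, which may be technical. Over the 6 wells with at least 10 cells of both clusters the mean difference was −1.10 points, lower in 2 of 6 wells, and the same exact permutation test gave p = 0.5625, where the smallest possible is 0.03125.

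In the treatment experiment, whose cells did not enter cluster 8, IL24 and NGFR were compared between treatments, first over all cells and then within primed cells. Over all the cells of a library TGFB1 raised 5 of the 7 tested label genes in edgeR's quasi-likelihood test, RGS2, FSCN1, CST7, DKK1 and TDO2 (DKK1 was not called by DESeq2), beside 16.3% of 18389 genes higher and 12.7% lower. RGS2 was 6.06 and 5.95 CPM in Control r1 and r2 and 27.01 and 21.96 with TGFB1, a log2 difference of 2.01 (SE 0.08, adjusted p = 2.86e-14, higher in both libraries). IL24 was 0.41 and 0.72 CPM in Control and 0.31 and 0.48 with TGFB1 (log2 difference −0.53, SE 0.27, edgeR adjusted p = 0.159). NGFR was 1.75 and 6.33 CPM in Control and 1.89 and 5.35 with TGFB1 (−0.14, SE 0.12, edgeR adjusted p = 0.426). In a sum over all cells, more primed cells and more RNA per cell cannot be told apart. By class, RGS2 in primed cells was 122 and 68.8 CPM in Control and 74.9 and 65.0 with TGFB1. In drug-susceptible cells it was 4.03 and 3.94 CPM in Control and 10.9 and 6.55 with TGFB1. The methods describe the replicates r1 and r2 as taken through expansion, splitting and treatment side by side, so p-values measure the spread between these libraries.

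TGFB1 libraries had far more primed cells, 29.1 and 31.3% of cells against 2.26 and 4.47% in Control, and they were other primed cells. The authors' primed class there is made of their clusters 4 and 10, and cluster 4 held 1548 of 1577 and 1706 of 1757 primed cells with TGFB1 but 5 of 94 and 6 of 165 in Control. Within primed cells, a comparison added after the data were seen, NGFR was 79.0 and 118 CPM in Control and 5.27 and 14.3 with TGFB1 (log2 difference −3.28, SE 0.17, edgeR adjusted p = 4.62e-19). IL24 was 17.1 and 15.7 CPM in Control and 1.04 and 1.03 with TGFB1 (−3.81, SE 0.38, edgeR adjusted p = 1.86e-10). Both TGFB1 libraries were below both Control libraries for both genes. The authors drew clusters 4 and 10 from these same counts. The p-values within primed cells therefore describe chosen sets of cells and are not independent support.

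Of 10930 genes tested in primed cells 6.21% were higher with TGFB1 and 7.09% lower, and of the 8 label genes 6 were lower and 0 higher. CST7 was lower at a log2 difference of −1.68, FSCN1 at −1.24, SERPINB2 at −2.78 and DKK1 at −1.62, with edgeR adjusted p of 7.48e-09, 8.92e-05, 0.0128 and 0.000554 and both TGFB1 libraries below both Control libraries in each. DKK1 rests on Control r1, at 46.2 CPM against 14.1 in r2, and without that library was at −0.32 (edgeR adjusted p = 0.762). SERPINB2 was not called without Control r1, TGFB1 r1 or TGFB1 r2, at −1.02, −2.94 and −2.66. DESeq2 called neither DKK1 nor SERPINB2 (adjusted p = 0.685 and 0.0826), so 4 of the 6 were called by both tools. RGS2 and TDO2 were at −0.31 and 0.63 and did not pass. EGFR and AXL were higher with TGFB1, at 0.89 and 0.83 (edgeR adjusted p = 0.0172 and 0.000549).

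**Figure D5:**
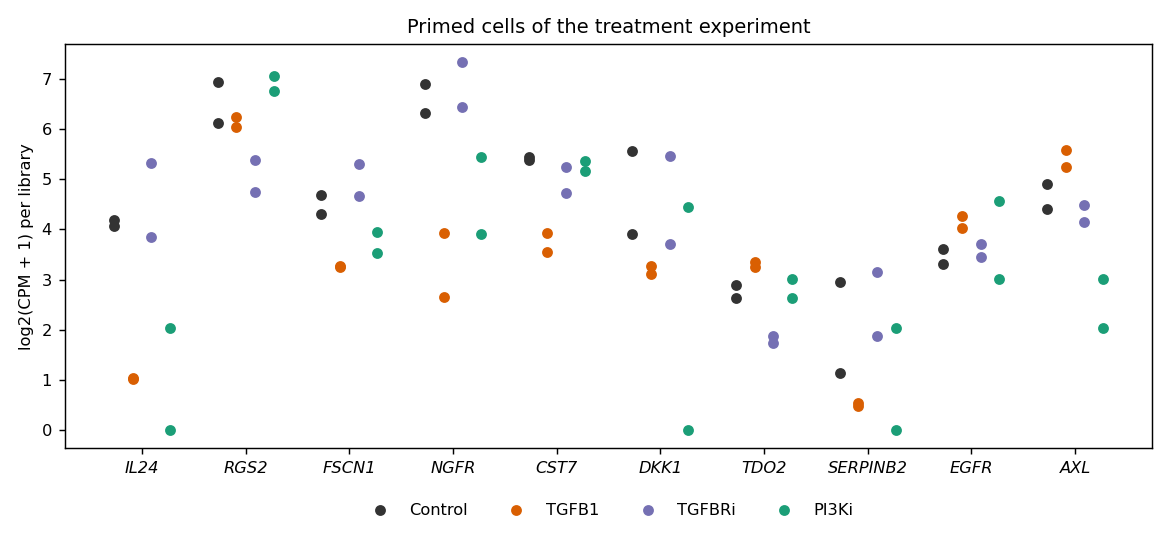
Level of the 8 label genes, EGFR and AXL as log2(CPM + 1) (vertical axis) in the primed cells of each library of the treatment experiment, 2 libraries for each of Control, TGFB1, TGFBRi and PI3Ki. NGFR and IL24 are low in both TGFB1 libraries, and the PI3Ki libraries rest on 25 and 70 primed cells, so their zeros are from few UMIs.

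TGFBRi and PI3Ki moved the label genes over all cells in different ways. With TGFBRi 1.09% of genes were higher and 1.45% lower. IL24 was 0.64 and 1.84 CPM in its r1 and r2, above Control in both (log2 difference 1.12, SE 0.22, edgeR adjusted p = 0.00456). FSCN1 was higher at 0.86 and RGS2 lower at −0.41, while NGFR, at 0.36, was not called. With PI3Ki 5.83% of genes were higher and 6.83% lower, and NGFR fell to 0.37 and 0.94 CPM, below Control in both (−2.51, SE 0.15, edgeR adjusted p = 1.7e-10). IL24, CST7, FSCN1 and RGS2 were also lower, at −1.49, −1.82, −1.82 and −0.73. Within primed cells IL24 and NGFR were at 0.82 and 0.32 with TGFBRi and neither was called (edgeR adjusted p = 0.398 and 0.577), and RGS2 was lower at −1.52 (edgeR adjusted p = 6.76e-07, both libraries below Control). With PI3Ki NGFR in primed cells was 14.0 and 42.5 CPM, below Control in both libraries (−1.74, edgeR adjusted p = 1.99e-05), on 3 and 12 cells with an NGFR UMI. IL24 was called lower there (edgeR adjusted p = 0.0299), at 0 CPM in the 25 primed cells of r1 and 3.11 in the 70 of r2, of which 2.86% held an IL24 UMI, too few to give the size of the difference. CST7, FSCN1 and RGS2 in primed cells were at −0.14, −0.64 and 0.36 with PI3Ki and were not called (edgeR adjusted p = 0.911, 0.579 and 0.492). No other setting was run for these PI3Ki values. Primed cells were 0.647 and 1.21% of the PI3Ki libraries and 2.26 and 4.32% of the TGFBRi libraries.

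Primed cells of the treatment experiment with an NGFR UMI were then set against those without, within each library that held 20 cells on both sides, which left out PI3Ki. Of 10124 genes 165 were higher (1.63%) and 129 lower (1.27%) in the cells with NGFR. These counts depend on the setting, with 31 and 38 after thinning to 5000 UMIs, 93 and 39 by DESeq2, and 2 and 2 with no library block. IL24 was 33.3, 29.7, 4.44, 4.04, 23.5 and 51.5 CPM in the cells with NGFR of Control r1 and r2, TGFB1 r1 and r2 and TGFBRi r1 and r2, and 4.05, 7.14, 0.84, 0.65, 5.79 and 26.5 in the cells without. It was higher in 6 of 6 libraries, at a log2 difference of 1.78 (SE 0.26, edgeR adjusted p = 9.67e-05). The cells with NGFR were deeper, with library medians of 10147 to 15313.5 UMIs against 9345.5 to 14073. When all cells were thinned to 5000 UMIs before NGFR was called, IL24 was at −0.27 and was not called (edgeR adjusted p = 0.945). It rested on 22 UMIs in the cells with NGFR and 76 in those without. The cells without were far more, 1548 against 29 in TGFB1 r1, so these totals do not compare levels.

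DKK1 was higher at 1.79 (SE 0.32, edgeR adjusted p = 0.00117), in 5 of 6 libraries. When thinned it stood at −0.39 and was not called either (edgeR adjusted p = 0.874). Without the TGFB1 libraries its adjusted p in edgeR was 0.0525. RGS2 was lower at −0.73 (SE 0.13, edgeR adjusted p = 0.00154), in 6 of 6 libraries, and stood at −0.90 when thinned but at −0.38 without the TGFB1 libraries (edgeR adjusted p = 0.278). With no library block neither DKK1 nor RGS2 was called, at edgeR adjusted p of 0.632 and 0.778, and DESeq2 gave no adjusted p for IL24, DKK1 or RGS2. FSCN1, CST7, TDO2 and SERPINB2 did not pass. AXL was higher at 0.79 and NT5E at 0.44, while PMEL, MLANA, TYR and DCT were lower among 14 melanocyte genes of which 0 were higher. The calls of PMEL and MLANA were lost by DESeq2, with no library block and without Control r2, TGFBRi r1 or TGFBRi r2, at edgeR adjusted p of 0.082 to 0.223 in those last 3.

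At the ends stood KRTAP2-3 at 3.35, ANKRD1, a YAP target, at 2.80 and PRND at 2.04, and MGP, an inhibitor of calcification, at −3.85, the EGFR ligand AREG at −3.64 and LGI2 at −3.21. OASL and G0S2, which were low in cluster 8 against cluster 2, were higher in the cells with NGFR at 1.44 and 1.55. Of the 10 genes highest in cluster 8 against cluster 2, PMEL, MLANA and FXYD3 were lower, at −0.57, −0.69 and −0.54, and SOX10 was at −0.10 and did not pass. FXYD3 was not called without any 1 of the Control or TGFBRi libraries. Its call was also lost with no library block and when thinned, at edgeR adjusted p of 0.697 and 0.129.

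In WM983B, with 731 primed and 718 drug-susceptible cells in 1 library and no replicate check, NGFR was 56.1 CPM in primed and 12.3 in drug-susceptible cells (exact Poisson intervals 54.0 to 58.2 and 11.4 to 13.3). DKK1 was 63.5 and 16.5 CPM, FSCN1 29.9 and 8.51 and CST7 12.1 and 2.003. IL24 was low, at 1.49 and 0.24 CPM, on 73 and 13 UMIs. TDO2 was at or near the floor, on 2 and 5 UMIs, and RGS2 was 3.44 and 2.54 CPM. SOX10 was 192 CPM in the primed cells and 208 in the others, while MITF was 197 and 391.985, PMEL 210.5 and 895 and MLANA 2.40 and 59.8.

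In the ATAC-seq libraries the measure was the fold enrichment over local background that the authors' peak caller gave each peak, merged into 151653 regions found in at least 3 of the 12 libraries. A library with no peak in a region was set at the lowest fold enrichment of its list. In limma 537 regions (0.354%) were higher in NGFR-High than in EGFR_High and 461 (0.304%) lower. Leaving out replicate 1, 2 or 3 left 0 regions in either direction, with 14149, 16119 and 18517 at an unadjusted p under 0.05. Of 42 regions at or near the 8 label genes 1 was higher and 0 lower.

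That region is the one downstream of DKK1, chr10:52318930-52319510, whose central stretch is printed above. Its fold enrichment was 15.5, 11.4 and 12.2 in NGFR-High, 5.12, 6.62 and 5.87 in EGFR_High, 15.5, 12.3 and 10.4 in EGFR-NGFR-High and 3.14, 4.24 and 2.90 in Mix, where the first and last are the lowest value of a library with no peak. The NGFR-High libraries lie above those of EGFR_High and Mix with no overlap. Against EGFR_High the log2 difference was 0.93 (SE 0.20, limma adjusted p = 0.0497), a call that each left-out replicate ended. Against Mix it was 1.91, set partly against such lowest values (limma adjusted p = 0.000167) and was called without each replicate in turn, at adjusted p of 0.0101 to 0.0216.

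Against Mix, a contrast added after the data were seen, 10156 regions (6.7%) were higher in NGFR-High and 5433 (3.58%) lower, and of the 42 regions 12 were higher and 1 lower. The region downstream of IL24, chr1:206905154-206906234, was 27.8, 21.0 and 24.9 in NGFR-High, 12.5, 11.3 and 10.2 in Mix and 15.4, 14.2 and 12.2 in EGFR_High, at a log2 difference of 1.09 from Mix (limma adjusted p = 0.00272) and 0.60 from EGFR_High (limma adjusted p = 0.159). Within 1000 bases of a transcript start of NGFR 4 regions were higher than in Mix. In 2 of them, at 0.98 and 0.92, every library had a peak. The other 2 had a peak in 5 and in 3 of the 12 libraries and none in Mix, so their calls are set against the lowest value of libraries with no peak and partly follow from how regions were kept. The one with the lowest adjusted p, chr17:49496006-49497496, was 29.4, 22.7 and 22.1 in NGFR-High and 13.4, 12.3 and 12.6 in Mix. Without replicate 1 the regions of IL24 and NGFR named here were not called against Mix, at limma adjusted p of 0.0568 and 0.0744, and without replicate 2 that of NGFR was at 0.058.

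IL24, FSCN1 and CST7 had 1 region each that was higher than in Mix and within 1000 bases of a transcript start, at 0.78, 1.03 and 0.71. For FSCN1 the region over the start of the gene itself was not called, at 0.43 (limma adjusted p = 0.133). TDO2 had 3 higher regions in or near its gene, at 0.91 to 0.96, of which 2 had no peak in any Mix library. A region near SERPINB2 was lower, at −1.09, where NGFR-High replicates 1 and 2 had no peak and stand at the lowest value of their lists. Each of these calls was lost without at least 1 of the replicates. The sort picked cells by NGFR protein, so the regions of NGFR itself are not independent of it. Of 51 regions near the 10 genes highest in cluster 8 against cluster 2, 0 were called against EGFR_High and 1 against Mix, a region beside PMEL that was lower at −0.90 (limma adjusted p = 0.0215). These are bulk sorts, in which fewer cells with an open region and less opening per cell cannot be told apart.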

How the data were processed

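Barcoded WM989 cells, WM983B cells and treated WM989 cells were measured by 10x 3′ single-cell RNA sequencing, and sorted WM989 cells by ATAC-seq. The single-cell tables that the authors deposited hold UMI counts, from Cell Ranger and hg38, with each cell's well, replicate, cluster and phase. They had removed cells with few genes, with many genes as likely doublets, and with a high percent of mitochondrial reads. In that deposited table the percent of mitochondrial reads is a column per cell. No doublet caller was run here. For ATAC-seq the authors deposited peaks from MACS2 2.1.1.20160309 after Bowtie2 2.3.4.1 and SAMtools 1.1 on hg38, per library. The fold enrichment in those deposited lists is a ratio over local background, and the −log10 q-value of each peak was also deposited and only checked here. Gene positions are from GENCODE annotation on hg38.

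The cluster, its markers and the gene lists were chosen with earlier results of these data known, so no list is independent support. Counts were summed per cluster and well and described as log2(CPM + 1) with no test, since the clusters come from the same counts. Genes named are the 8 label genes, the 10 at each end against cluster 2, the 5 at each end against cluster 9 and drug-susceptible cells among genes of at least 20 CPM with the same sign in every well, and up to 4 at the ends of each list. Other named list members, the genes at the ends of the NGFR comparison and of the r1 and r2 difference and those shared after SOX10 cells were left out were chosen after their values were seen. Summed counts of the treatment experiment were fitted by edgeR 4.0.16 under R 4.3.3 (filterByExpr, TMM, quasi-likelihood, two-sided, Benjamini-Hochberg, threshold 0.05), with replicate or library as a block, and SE was the log2 difference over the square root of F. DESeq2 1.42.0 was an alternative. The replicate term was used because, by the methods, the treated plates were seeded from shared wells. Libraries of a treatment are named Mix and Primed in the sample titles but r1 and r2 in the cell table, and the match between these names is unknown here. ATAC-seq regions were tested with limma 3.58.1 on log2 fold enrichment, centred on the median of the 78175 regions found in all libraries. Depth is the UMI total for cells, and for peaks it is unknown. The tests were checked on simulated data. Alternatives were other pseudocounts, floors, scalings, thinning to 10000 or 5000 UMIs, subsets of cells, wells, libraries and replicates, and no block.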

Additional observations from a re-analysis of the deposited data

Results flagged for a closer look

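Of 18 series of 8 wells within cluster 8 that were screened, 5 had 1 well whose gap to the next was large against the whole range by Dixon's criterion, which chance passes in about 1 of 20 groups. In well 2 SOX10 stood at 59.4 CPM, MLANA at 501 CPM and FXYD3 at 123 CPM, and 65.3% of its cluster 8 cells carried a SOX10 UMI. These 4 values come from the same cells. The median mitochondrial percent of cluster 8 in well 2 was 12.7, the highest of the 8 wells, and its median of 71946 UMIs was among the higher ones, where wells 5 and 6 of r2 reached 93319 and 98576. The part of depth or of drops with 2 cells in these values was not tested. In well 3 TDO2 stood at 83.9 CPM against 8.01 to 34.4 in the other wells, and in cluster 9 of the same well at 64.2 CPM.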

How the results depend on the processing

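Cluster 8 held 22.3% of primed cells, 25.5% when only G1 cells were counted, and between 17.1 (without well 4) and 30.2% (without well 2) when 1 well was left out. The 48 genes higher and 72 lower than in cluster 2 became 162 and 124 when cells were thinned to 10000 UMIs, 18 and 42 with a pseudocount of 5 CPM, 9 and 29 at 50 CPM or more, 145 and 119 with no minimum, 258 and 211 in r1, which has 1 such well, and 73 and 110 without cells that carry a SOX10 UMI. They became 80 and 55 with TMM factors, 85 and 100 in cells at or under the median mitochondrial percent, 28 and 91 in wells with 10 cells, and 6 and 79 with the last setting and no SOX10 cells. Leaving out a well gave 55 to 132 higher (85 without well 7 and 132 without well 8) and 88 to 92 lower. In the setting with 10 cells and no SOX10 cells HIST1H1B and FABP7 turned to −0.24 and −0.090.

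Against cluster 9 the 48 higher became 73 when thinned, 21 with the pseudocount of 5, 8 at 50 CPM, 126 with no minimum, 93 in r1, 25 without SOX10 cells and 15 with 10 cells as well, and the 295 lower became 155 at 50 CPM. Leaving out a well gave 32 to 70 and 284 to 320. Only G1 cells could not be run there. Against drug-susceptible cells 541 and 512 became 216 and 203 at 50 CPM, and 541 became 902 with no minimum, with 517 to 604 higher when a well was left out. The lineage barcode share of cluster 8 minus cluster 2, −0.49 points, was 2.52 with at least 3 barcode UMIs and ran from −1.53 to 1.15 when a well was left out, the last without well 7.

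For cells with an NGFR UMI the 165 genes higher became 104 at 2 NGFR UMIs, 31 when thinned to 5000 UMIs, 2 with no library block, 93 by DESeq2 and 87 without the TGFB1 libraries, and the 129 lower became 38 when thinned, 194 with no filter, 2 with no library block and 39 by DESeq2. Leaving out a library gave 78 to 160 (78 without TGFB1 r1, 101 without TGFBRi r2) and 70 to 131 (70 without TGFBRi r2, 80 without Control r2 or TGFB1 r1). Thinned, IL24 and DKK1 turned to −0.27 and −0.39, and neither was called (edgeR adjusted p = 0.945 and 0.874).

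With TGFB1 over all cells 2990 and 2334 became 2161 and 1438 with no replicate block, 2990 became 1977 by DESeq2, and leaving out a library gave 1971 to 3440 and 1193 to 2971, the lowest of each without TGFB1 r1. In primed cells 679 and 775 became 618 and 740 with no replicate block, 272 and 341 by DESeq2, and 272 to 367 and 312 to 396 when any of the 4 libraries was left out. For chromatin 537 and 461 regions became 650 and 487 with a replicate block, 316 and 229 in regions found in all libraries, 304 and 199 with the 50000 highest peaks, 2610 and 258 with no centring, and 0 and 0 in limma without any 1 replicate (unadjusted p under 0.05 in 14149 to 18517). Same-numbered sorts correlated at a mean of 0.092 and at most at 0.17, against a mean of −0.046 and at most 0.040 for sorts of different number. The numbers were not taken as pairs in the main fit, and the block put the DKK1 region at an adjusted p of 0.056 in limma, where its call was lost.

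Of 184 values of the 16 main results under these settings 101 stayed within the stated tolerance (for counts, 1.5 times), 81 moved and 2 reversed. Of 1465 other values, single genes and the region counts against Mix, 1337 stayed, 81 moved, 38 lost and 5 gained a call and 4 reversed. For single genes of the edgeR tests a turned sign counted as reversed only where the main value was called. Uncalled genes that turned are among those that stayed, such as C11orf96, from 0.085 to −0.69 at 2 or more NGFR UMIs. The cause of these shifts was not tested.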

Other observations

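Some genes outside the lists stood higher in cluster 8 than in cluster 2 in each of wells 2, 7 and 8. NR4A2 was at a log2 difference of 1.41, NR4A1 at 1.21, GEM at 1.22, SOCS2 at 1.198, TRIB1 at 1.14 and SGK1 at 1.09. These genes were named after their values were seen and form no tested group. The AP-1 and immediate early list had 0 of 13 genes called in either direction in the same comparison.

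The cyclin D1 gene CCND1 ran from 1709 to 4564 CPM in cluster 8 with a median of 3712, against 4037 to 5491 in cluster 2, 3942 to 4937 in cluster 9 and 357 to 685 in drug-susceptible cells. The cell cycle inhibitor CDKN1A ran from 9.25 to 29.4 CPM against 26.5 to 52.3 in cluster 2, 29.8 to 39.3 in cluster 9 and 0.68 to 1.94 in drug-susceptible cells.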
